A study of Mus musculus with 8 samples.

Results

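DNA replication genes are described here as 43 genes named by symbol, of which 41 were found under that name among the 22919 genes kept on the arrays. They were chosen by what their proteins do at the replication fork, by a rule that uses no measured value but was written with earlier results of these data known. Each gene was read from the probe with the brightest mean signal in the co-culture channel. The other 2, Gins2 and Rfc1, were not found under those names, and their values under older names are given further on. All 41 were well above background on all 8 arrays.

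The samples were co-cultures of MC3T3-E1 cells, a mouse osteoblast line from skull bone, with tumour cells. The tumour cells carried an empty vector or overexpressed Jagged1, a ligand of Notch receptors. Each kind of co-culture was treated with the solvent DMSO or with MRK-003, an inhibitor of the gamma-secretase complex that cuts activated Notch and frees its signalling domain. The 4 groups are named by tumour cell and treatment, from vector DMSO to Jagged1 MRK-003, and each has 2 biological replicates on 1 array each. All groups share the osteoblast line and the presence of tumour cells, so osteoblasts grown alone were not analysed here. Which tumour line was used, and whether cells were separated before RNA was taken, is not given in the sources used here. RNA was measured in bulk, so fewer cells in S phase and less message per cell cannot be told apart.

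A cell copies its DNA by loading the ring-shaped MCM helicase onto origins in G1 phase and activating it in S phase. Polymerases then extend both strands on the sliding clamp PCNA, while ribonucleotide reductase and thymidylate synthase supply the building blocks. Transcription of many of these genes is driven by E2F factors when the retinoblastoma proteins are phosphorylated, so their messages mark cells that enter or pass S phase. In osteoblast cultures these messages are high while cells proliferate and low once they differentiate.

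The promoter windows are shown first because some members carry a sequence feature that the choice of genes did not use, the binding word of E2F factors. RefSeq windows on GRCm38.p6, from 250 bases before to 50 bases after the start of transcription, were at hand for 35 of the 41 members, and the first listed window of each gene was used. No entry was matched for Gmnn, Mcm4, Gins1, Prim2, Pole and Rfc2. The words TTTCCCGC, TTTCGCGC, TTTGCCGC and TTTGGCGC were searched on both strands, and overlapping words were counted separately. At least 1 word stood in 12 of the 35 windows (34.3%), against 626 of 27018 windows of all genes (2.3%). In Cdt1, Mcm3, Pold1 and Pole2 the words stood only after the start, and Mcm7 had a further word there. Orc1l and Rfc3 also had a word upstream, and their stretches are not printed. The following stretches lie upstream of the start site, are written on the gene's strand, and carry the words in capitals on either strand.
Cdc6, chr11:98907993-98908040, plus strand: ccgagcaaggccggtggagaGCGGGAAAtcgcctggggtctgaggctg
Mcm5, chr8:75109336-75109387, plus strand: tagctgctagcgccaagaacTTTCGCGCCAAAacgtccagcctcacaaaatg
Mcm6, chr1:128359725-128359835, minus strand: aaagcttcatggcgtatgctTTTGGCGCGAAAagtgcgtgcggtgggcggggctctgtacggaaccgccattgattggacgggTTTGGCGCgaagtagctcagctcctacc
Mcm7, chr5:138172021-138172068, minus strand: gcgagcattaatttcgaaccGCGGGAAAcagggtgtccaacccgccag
Gins3, chr8:95633498-95633545, plus strand: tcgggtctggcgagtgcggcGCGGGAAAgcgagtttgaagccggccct
Pola1, chrX:93632266-93632313, minus strand: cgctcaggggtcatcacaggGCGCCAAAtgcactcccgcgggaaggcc
In Mcm5 and in the first site of Mcm6, words on opposite strands overlap into 1 palindrome-like run. A match is a description of letters and not evidence of binding. The members with a word were no further apart between groups than those without: the median log2 difference of Jagged1 DMSO from vector DMSO was -0.37 over the 12 with a word and -0.39 over the 23 without.

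Every value below is the log2 ratio of the co-culture (Cy3) over a commercial mouse reference RNA (Cy5) on the same array. Ratios of different probes are not levels of expression that can be ranked, so only differences between groups are compared across genes. Median Cy3 signal was 164.7 to 203.6 for replicate 1 and 76.5 to 117.2 for replicate 2. Replicate 1 of every group lay on 1 slide and replicate 2 on another, so the replicate number stands for the slide. On 3 arrays (both of Jagged1 DMSO and replicate 2 of Jagged1 MRK-003) a few spots had a very high Cy3 local background, with maxima of 2414.5 to 32904 against 41 to 349.5 on the others. The background model took a standard deviation of 56.9 to 352 there and 0.698 to 7.56 on the other 5 arrays. With 1 median background for the whole array it was 0.288 to 0.436 on all 8, so differences with that background stand beside the main ones. Adjusted p is from limma with Benjamini-Hochberg adjustment over all 22919 genes. The labels were checked on Jag1, which was 1.07 ± 0.13 (SE) higher on the log2 scale in Jagged1 DMSO than in vector DMSO (limma adjusted p = 0.13, and 0.0045 with the slide as a block and the median background). In MRK-003 Jag1 did not tell the labels apart, at 1.83 and 2.01 in vector and 1.99 and 1.80 in Jagged1 libraries. The difference was -0.02 ± 0.13 (0.12 with the median background). Whether the samples hold tumour RNA is not given, so Jag1 cannot decide whether a label is right. The MRK-003 libraries are therefore named by their label alone, in every comparison that uses them. In Jagged1 DMSO against vector DMSO, the Notch target Hey1 was 3.57 ± 0.43 higher (limma adjusted p = 0.13, and 0.00116 with the block and median background). The receptor gene Notch3 was 1.66 ± 0.31 higher there (limma adjusted p = 0.247 and 0.00268). In MRK-003 the Hey1 and Notch3 differences were 0.95 ± 0.43 and 0.40 ± 0.31 (0.33 and 0 with the median background). From DMSO to MRK-003 with Jagged1, Hey1, Notch3 and Jag1 differed by -4.44 ± 0.43, -1.67 ± 0.31 and -1.22 ± 0.13 (limma adjusted p = 0.0321, 0.122 and 0.043). With vector these differences were -1.83 ± 0.43, -0.40 ± 0.31 and -0.13 ± 0.13.

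In DMSO, Jagged1 tumour cells went with lower messages of nearly the whole replication machinery. Of the 41 members, 39 were lower in Jagged1 DMSO than in vector DMSO, against 49.0% of all genes. The median difference was -0.39 on the log2 scale, against 0.00 over all genes, and was -0.47 on slide 1 and -0.34 on slide 2. Both Jagged1 DMSO arrays lay below both vector DMSO arrays for 36 members, against 23.3% of all genes. With the median background these were 40 lower members (52.0% of all genes), a median of -0.49 and 38 members without overlap (22.1% of all genes). The members that overlapped or went the other way in the main values were Orc1l, Pola1, Rfc2, Dut and Fen1. Mean Cy3 signals of the members were 317.1 (Orc1l) to 20090 (Mcm6), above the median spot. The shares over all genes include dimmer genes and are not matched for signal. Across the 41 members, the difference and the Cy3 signal had a Spearman correlation of -0.36 (-0.12 with the median background). For MRK-003 with Jagged1, described next, it was 0.32 (0.15).

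Single genes mostly missed the threshold. No member passed a limma adjusted p of 0.05 in the fit of the group means, where 0.0175% of all genes passed. An unadjusted p below 0.05 was found for 22 of the 41 members and 1858 of all 22919 genes. With the slide as a block, 4 members passed, all lower (Mcm4, Mcm6, Prim1 and Chaf1b), against 0.279% of all genes that passed in that direction. None passed with the median background alone (0.175% of all genes), and 17 passed with both, all lower, against 2.60%. Leaving out any 1 of the 8 arrays kept the count of the fit of the group means at 0.

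MRK-003 given to Jagged1 co-cultures went with higher messages of nearly all members. Of the 41 members, 40 were higher in the libraries labelled Jagged1 MRK-003 than in Jagged1 DMSO, against 48.6% of all genes. The median difference was 0.53, against 0.00 over all genes, and was 0.62 on slide 1 and 0.53 on slide 2. Both MRK-003 arrays lay above both DMSO arrays for 37 members, against 18.5% of all genes; the exceptions were Pold2, Dut, Fen1 and Chaf1a. With the median background 40 members were higher (52.6% of all genes) and 37 did not overlap (24.2% of all genes). This comparison shares the Jagged1 DMSO arrays with the one before, so both move with those 2 arrays and neither supports the other.

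One member, Mcm10, passed in the fit of the group means (0.118% of all genes passed as higher). An unadjusted p below 0.05 was found for 27 of the 41 members and 1998 of all 22919 genes. The limma adjusted p of Mcm10 was 0.0809 to 0.304 when 1 array was left out, and no member passed then. With the slide as a block 17 members passed (1.34% of all genes), with the median background 14 (1.07%), and with both 31 (5.92%), all of them higher. The median difference was 0.56 with the median background.

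**Figure D1:**
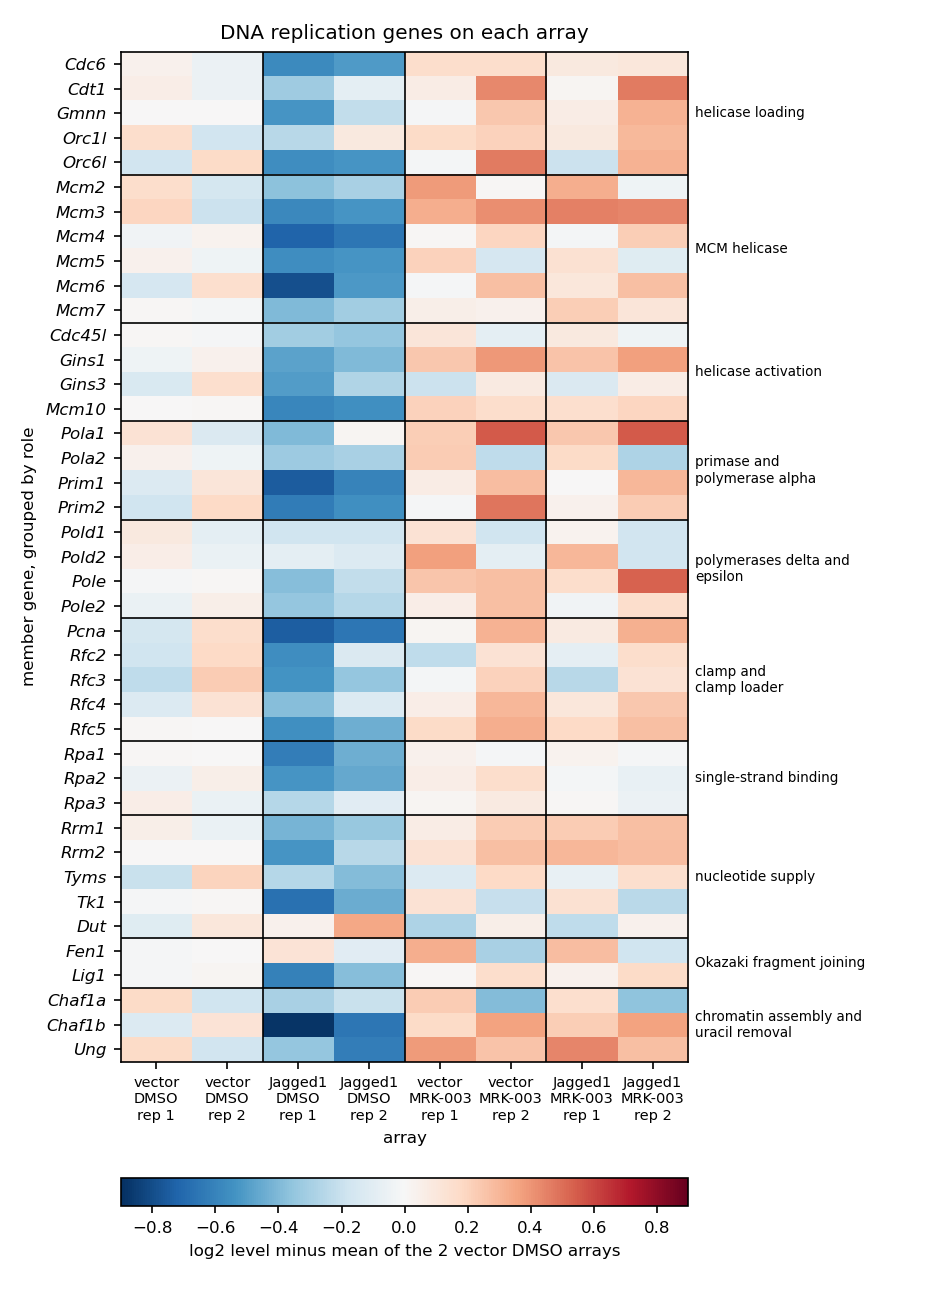
Log2 level of each of 41 members on each of 8 arrays, minus the mean of that gene on the 2 vector DMSO arrays, with members in rows by role and arrays in columns (rep is the replicate number). The 2 Jagged1 DMSO columns are blue (lower) for nearly all members, while the 4 MRK-003 columns are mostly pale to red (higher), and Dut runs the other way.

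Among the genes that load the helicase, all 5 were lower in Jagged1 DMSO, with a median difference of -0.38, and all 5 were higher with MRK-003 and Jagged1, with a median of 0.56. Cdc6, the ATPase that brings MCM to origins, lay at 0.25 and 0.16 in vector DMSO, -0.36 and -0.30 in Jagged1 DMSO, 0.37 and 0.37 in vector MRK-003, and 0.30 and 0.31 in the libraries labelled Jagged1 MRK-003 (replicates 1 and 2). Its Jagged1 DMSO arrays were the lowest and did not overlap with any other group. The difference was -0.54 ± 0.08 (SE, n = 2 arrays per group), a 1.46-fold lower level (limma adjusted p = 0.159, and 0.0168 with the block and median background). A second Cdc6 probe gave -0.44. With MRK-003 and Jagged1 its difference was 0.64 ± 0.08 (limma adjusted p = 0.0526, and 0.0234 with the block).

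Cdt1, the partner of Cdc6 in loading, and Gmnn, which encodes geminin, the protein that blocks Cdt1 after loading, were also lower in Jagged1 DMSO. Cdt1 lay at -0.44 and -0.55 in vector DMSO, -0.82 and -0.59 in Jagged1 DMSO, -0.43 and -0.07 in vector MRK-003, and -0.48 and -0.03 in the libraries labelled Jagged1 MRK-003. Its replicates differed as much as its groups, and the difference in DMSO was -0.21 ± 0.19 (limma adjusted p = 0.748). Gmnn lay at -1.34 on both vector DMSO arrays, -1.87 and -1.56 in Jagged1 DMSO, -1.35 and -1.10 in vector MRK-003, and -1.27 and -1.03 in the libraries labelled Jagged1 MRK-003. Its Jagged1 DMSO arrays were the lowest, at -0.38 ± 0.15 from vector DMSO (limma adjusted p = 0.614). Of the origin recognition subunits, Orc6l differed by -0.54 and Orc1l by -0.08, and Orc1l, the dimmest member, by -0.42 with the median background.

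All 6 genes of the MCM helicase were lower in Jagged1 DMSO without overlap, by -0.33 (Mcm2) to -0.69 (Mcm4). With MRK-003 all 6 were higher in Jagged1 co-cultures without overlap, by 0.47 (Mcm2) to 1.00 (Mcm3). Mcm4 lay at 0.18 and 0.24 in vector DMSO, -0.51 and -0.44 in Jagged1 DMSO, 0.22 and 0.40 in vector MRK-003, and 0.19 and 0.43 in the libraries labelled Jagged1 MRK-003. The 3 groups other than Jagged1 DMSO overlapped with each other, and Jagged1 DMSO lay apart by 1.61-fold (-0.69 ± 0.11, limma adjusted p = 0.22, and 0.0474 with the block). Mcm6 lay at -0.17 and 0.13 in vector DMSO, -0.81 and -0.54 in Jagged1 DMSO, -0.03 and 0.25 in vector MRK-003, and 0.08 and 0.25 in the libraries labelled Jagged1 MRK-003. Replicate 2 lay above replicate 1 in all 4 groups, and Jagged1 DMSO did not overlap with the others. Mcm6 differed by -0.65 ± 0.17 in DMSO and passed with the block as well (limma adjusted p = 0.0449). Mcm3 lay at -0.65 and -1.03 in vector DMSO, -1.42 and -1.37 in Jagged1 DMSO, -0.51 and -0.42 in vector MRK-003, and -0.39 and -0.40 in the libraries labelled Jagged1 MRK-003. Both MRK-003 groups lay above vector DMSO, and Jagged1 DMSO below it. Mcm3 was 2.00-fold higher with MRK-003 in Jagged1 co-cultures (1.00 ± 0.13, limma adjusted p = 0.0632, and 0.0309 with the block), and its second, dimmer probe gave 0.47.

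The 4 genes that activate the helicase had a median of -0.42 in DMSO and 0.55 with MRK-003 and Jagged1. Mcm10, which helps to start unwinding, had the smallest standard error of the members. It lay at 0.42 and 0.43 in vector DMSO, -0.17 and -0.13 in Jagged1 DMSO, 0.63 and 0.58 in vector MRK-003, and 0.57 and 0.61 in the libraries labelled Jagged1 MRK-003. Jagged1 DMSO was lowest, vector DMSO stood between, and both MRK-003 groups overlapped at the top. Mcm10 rose with MRK-003 in Jagged1 co-cultures by 0.74 ± 0.07, or 1.67-fold (limma adjusted p = 0.0338, and 0.00275 with the block and median background). In DMSO the difference was -0.57 ± 0.07 (limma adjusted p = 0.13, and 0.0143 with both). Its probe lies at chr2:4908072-4908131 on the minus strand (mm7). Cdc45l, Gins1 and Gins3 encode proteins that join MCM in the active helicase. They differed by -0.33, -0.44 and -0.39 in DMSO and by 0.36, 0.76 and 0.35 with MRK-003 and Jagged1. A second Gins1 probe gave -0.25 and 0.49.

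Of primase and polymerase alpha, which start each new strand, Prim1 differed most. It lay at -0.85 and -0.62 in vector DMSO, -1.48 and -1.33 in Jagged1 DMSO, -0.66 and -0.45 in vector MRK-003, and -0.73 and -0.43 in the libraries labelled Jagged1 MRK-003. Only the Jagged1 DMSO arrays stood outside the range of the others. That put Prim1 at -0.67 ± 0.15 in DMSO (limma adjusted p = 0.339, and 0.0432 with the block) and at 0.82 ± 0.15 with MRK-003 and Jagged1 (limma adjusted p = 0.12, and 0.013 with the block). Prim2 differed by -0.60 and 0.73, Pola2 by -0.31 and 0.26, and Pola1 by -0.19 and 0.59, and the Pola1 arrays in DMSO overlapped. A second, much dimmer Prim2 probe did not repeat these differences, at 0.11 and 0.05. A second, dimmer Pola2 probe gave -0.11 and 0.22.

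Among the polymerases that extend the strands, Pold1, Pold2, Pole and Pole2 had a median of -0.24 in DMSO and 0.27 with MRK-003 and Jagged1. Pole2, a subunit of the leading-strand polymerase and the gene with the smallest p among these in DMSO, lay at 0.04 and 0.15 in vector DMSO, -0.25 and -0.16 in Jagged1 DMSO, 0.16 and 0.37 in vector MRK-003, and 0.07 and 0.26 in the libraries labelled Jagged1 MRK-003. Its groups in DMSO did not overlap, at -0.30 ± 0.12 (limma adjusted p = 0.601). Pole, the catalytic subunit, differed by -0.30 ± 0.14 in DMSO and by 0.65 ± 0.14 with MRK-003 and Jagged1 (limma adjusted p = 0.167, and 0.03 with the median background). Pold1 and Pold2, the lagging-strand polymerase, were at -0.18 ± 0.14 and -0.10 ± 0.21 in DMSO.

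Pcna, the sliding clamp, lay at -0.53 and -0.21 in vector DMSO, -1.11 and -1.02 in Jagged1 DMSO, -0.35 and -0.06 in vector MRK-003, and -0.29 and -0.05 in the libraries labelled Jagged1 MRK-003. The Jagged1 DMSO arrays were the lowest, and the other 3 groups overlapped. Its difference in DMSO was -0.70 ± 0.16, or 1.62-fold lower (limma adjusted p = 0.376, and 0.0131 with the block and median background), and it was 0.89 ± 0.16 with MRK-003 and Jagged1 (limma adjusted p = 0.122, and 0.0144 with the block). Pcna was read from 10 spots, and its reference signal was saturated on 1 array. Rfc5, a clamp loader subunit, lay at 0.01 and 0.00 in vector DMSO, -0.55 and -0.44 in Jagged1 DMSO, 0.17 and 0.33 in vector MRK-003, and 0.18 and 0.27 in the libraries labelled Jagged1 MRK-003. Jagged1 DMSO was lowest and both MRK-003 groups highest, as for Mcm10, and the difference in DMSO was -0.50 ± 0.09 (limma adjusted p = 0.25). The loader subunits Rfc2, Rfc3 and Rfc4 differed by -0.34, -0.44 and -0.26 in DMSO and by 0.38, 0.39 and 0.42 with MRK-003 and Jagged1. The Rfc2 arrays in DMSO overlapped, and a second, dimmer Rfc2 probe gave -0.11 and 0.09.

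RPA coats the single strands that the helicase exposes. Rpa1, its largest subunit, lay at 0.14 and 0.13 in vector DMSO, -0.49 and -0.31 in Jagged1 DMSO, 0.17 and 0.12 in vector MRK-003, and 0.16 and 0.12 in the libraries labelled Jagged1 MRK-003. The 6 arrays outside Jagged1 DMSO spanned 0.12 to 0.17. Jagged1 DMSO stood at -0.53 ± 0.09 from vector DMSO (limma adjusted p = 0.22, and 0.0241 with the block and median background). Rpa2 differed by -0.49, with -0.50 from its second probe, and Rpa3, the smallest subunit, by -0.18. With MRK-003 and Jagged1, Rpa1, Rpa2 and Rpa3 differed by 0.53, 0.45 and 0.16.

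Among the genes of nucleotide supply, Rrm1, the large subunit of ribonucleotide reductase, lay at -0.09 and -0.20 in vector DMSO, -0.56 and -0.48 in Jagged1 DMSO, -0.07 and 0.09 in vector MRK-003, and 0.09 and 0.13 in the libraries labelled Jagged1 MRK-003. Jagged1 DMSO was lowest again, at -0.38 ± 0.09 from vector DMSO (limma adjusted p = 0.409), and MRK-003 with Jagged1 differed by 0.63 ± 0.09 (limma adjusted p = 0.078, and 0.0368 with the block). Rrm2 (-0.39), thymidine kinase Tk1 (-0.56) and thymidylate synthase Tyms (-0.33) were also lower in DMSO, and differed by 0.68, 0.50 and 0.36 with MRK-003 and Jagged1. A second Tyms probe gave -0.39 and a dim one 0.08. Dut, which breaks down dUTP and so keeps uracil out of DNA, went the other way. It lay at -0.81 and -0.60 in vector DMSO, -0.66 and -0.35 in Jagged1 DMSO, -0.98 and -0.65 in vector MRK-003, and -0.93 and -0.66 in the libraries labelled Jagged1 MRK-003. The groups overlapped, and the higher values in Jagged1 DMSO stood at 0.20 ± 0.18 (limma adjusted p = 0.745) with 0.13 from a second probe. Dut and Fen1 were singled out after their values were seen.

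Lig1, the ligase that seals Okazaki fragments, lay at -0.29 and -0.26 in vector DMSO, -0.89 and -0.66 in Jagged1 DMSO, -0.27 and -0.12 in vector MRK-003, and -0.24 and -0.11 in the libraries labelled Jagged1 MRK-003. Its Jagged1 DMSO arrays lay apart by -0.50 ± 0.11 (limma adjusted p = 0.353, and 0.0269 with the block and median background). Fen1, the flap nuclease of the same step, lay at -0.16 and -0.15 in vector DMSO and -0.03 and -0.25 in Jagged1 DMSO. Its difference was 0.01 ± 0.24 in DMSO (limma adjusted p = 0.994) and 0.04 ± 0.24 with MRK-003 and Jagged1.

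The member with the largest difference in both comparisons was Chaf1b, a subunit of the factor that puts histones onto new DNA. It lay at 0.24 and 0.48 in vector DMSO, -0.52 and -0.29 in Jagged1 DMSO, 0.53 and 0.72 in vector MRK-003, and 0.58 and 0.72 in the libraries labelled Jagged1 MRK-003. Jagged1 DMSO was lowest, and both MRK-003 groups lay above vector DMSO. It was 1.70-fold lower in Jagged1 DMSO (-0.76 ± 0.14, limma adjusted p = 0.242, and 0.0376 with the block) and 2.08-fold higher with MRK-003 in Jagged1 co-cultures (1.05 ± 0.14, limma adjusted p = 0.0595, and 0.00875 with the block). The partner subunit Chaf1a differed by -0.24 ± 0.27 in DMSO. Ung, which removes uracil from DNA, differed by -0.49 in DMSO and 0.85 with MRK-003. Under the older names 4833427B12Rik and Recc1, Gins2 and Rfc1 were at -0.29 and -0.39 in DMSO and at 0.45 and 0.43 with MRK-003 and Jagged1, and passed in neither comparison in any of these fits.

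**Figure D2:**
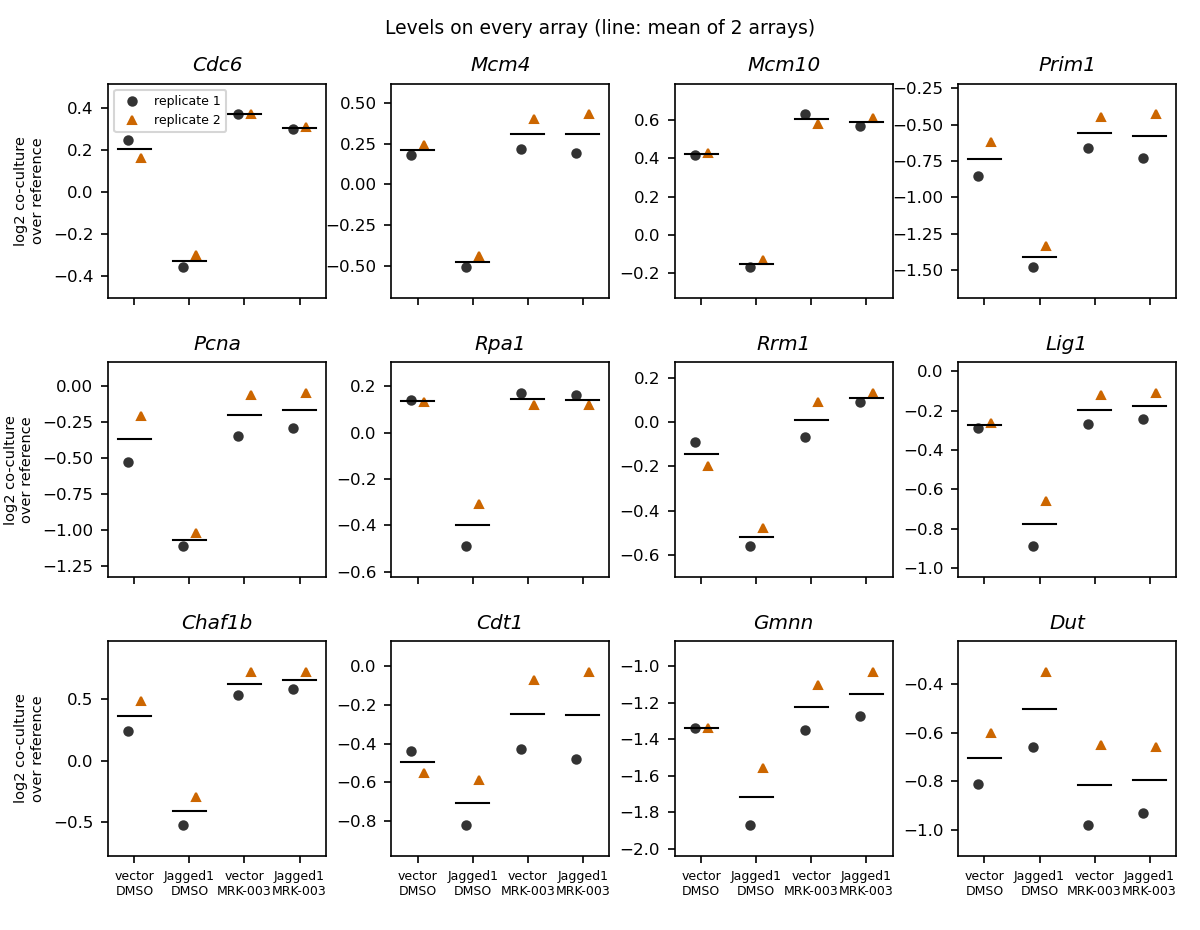
Log2 ratio of co-culture over reference RNA for 12 members in the 4 groups, with a circle for replicate 1, a triangle for replicate 2 and a line at the mean of both. Each panel has its own vertical axis. Jagged1 DMSO is the lowest group in all panels except Dut, where it is the highest.

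With MRK-003 present, no difference stood out between the libraries labelled Jagged1, whose Jag1 level was not above that of vector, and those labelled vector. Of the 41 members, 20 were higher and 21 lower with Jagged1 (49.5% of all genes were lower), the median was 0.00, and the members spanned -0.17 (Orc6l) to 0.12 (Mcm7). The interquartile range of all genes was -0.06 to 0.07. No gene passed in limma in any of the 4 fits (0% of 22919); in the fit of the group means 0 members and 143 of all genes had an unadjusted p below 0.05. The 95% interval was -0.20 to 0.17 for Mcm10, -0.31 to 0.36 for Chaf1b and -0.37 to 0.44 for Pcna. The differences of these genes in DMSO (-0.57, -0.76 and -0.70) were among the larger ones and lay outside those intervals. For other members the difference in DMSO lay inside the interval in MRK-003. Examples are Cdt1 (-0.21 in -0.48 to 0.47), Orc6l (-0.54 in -0.75 to 0.42) and Mcm2 (-0.33 in -0.52 to 0.42). The intervals leave out the error of the differences in DMSO. When arrays were centred on their median without loess, the median over members was -0.41 and all 41 were lower, beside a median over all genes of -0.09.

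In vector co-cultures, MRK-003 went with slightly higher replication messages. Of the 41 members, 35 were higher in vector MRK-003 than in vector DMSO, against 51.5% of all genes. The median difference was 0.14, on slide 1 0.12 and on slide 2 0.15, and it was 0.14 with the median background. Both groups stayed apart for 16 members, against 13.7% of all genes. The largest differences were those of Mcm3 and Pola1 (0.38 each), Ung (0.32), Gins1 (0.31), and Chaf1b and Pole (0.26 each), named after their values were seen. No member passed in limma in any of the 4 fits (0% of all genes in 3 of them and 0.00873% with the block and median background). In the fit of the group means, 3 of the 41 members and 831 of all 22919 genes had an unadjusted p below 0.05.

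The MRK-003 differences with Jagged1 and with vector come from different arrays. Across the 41 members they had a Pearson correlation of 0.68 and a Spearman correlation of 0.67 (a description across genes, which share the 2 slides and their probes). The effect of Jagged1 in DMSO minus that in MRK-003 was below 0 for 40 of the 41 members, against 49.2% of all genes, with a median of -0.43. No member passed this interaction in the fit of the group means (0% of all genes), and 17 had an unadjusted p below 0.05, against 509 of all 22919 genes. None passed with the block (0%) or the median background (0.0131%) alone, and with both 1 passed, Chaf1b (-0.83, limma adjusted p = 0.043, against 0.183% of all genes). Averaged over both kinds of tumour cell, 40 members were higher with MRK-003 (51.0% of all genes), with a median of 0.33. Mcm10 passed (0.46 ± 0.05, limma adjusted p = 0.0461, against 0.113% of all genes). With the block 15 members passed (1.36%), with the median background 9 (0.807%) and with both 26 (4.88%).

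**Figure D3:**
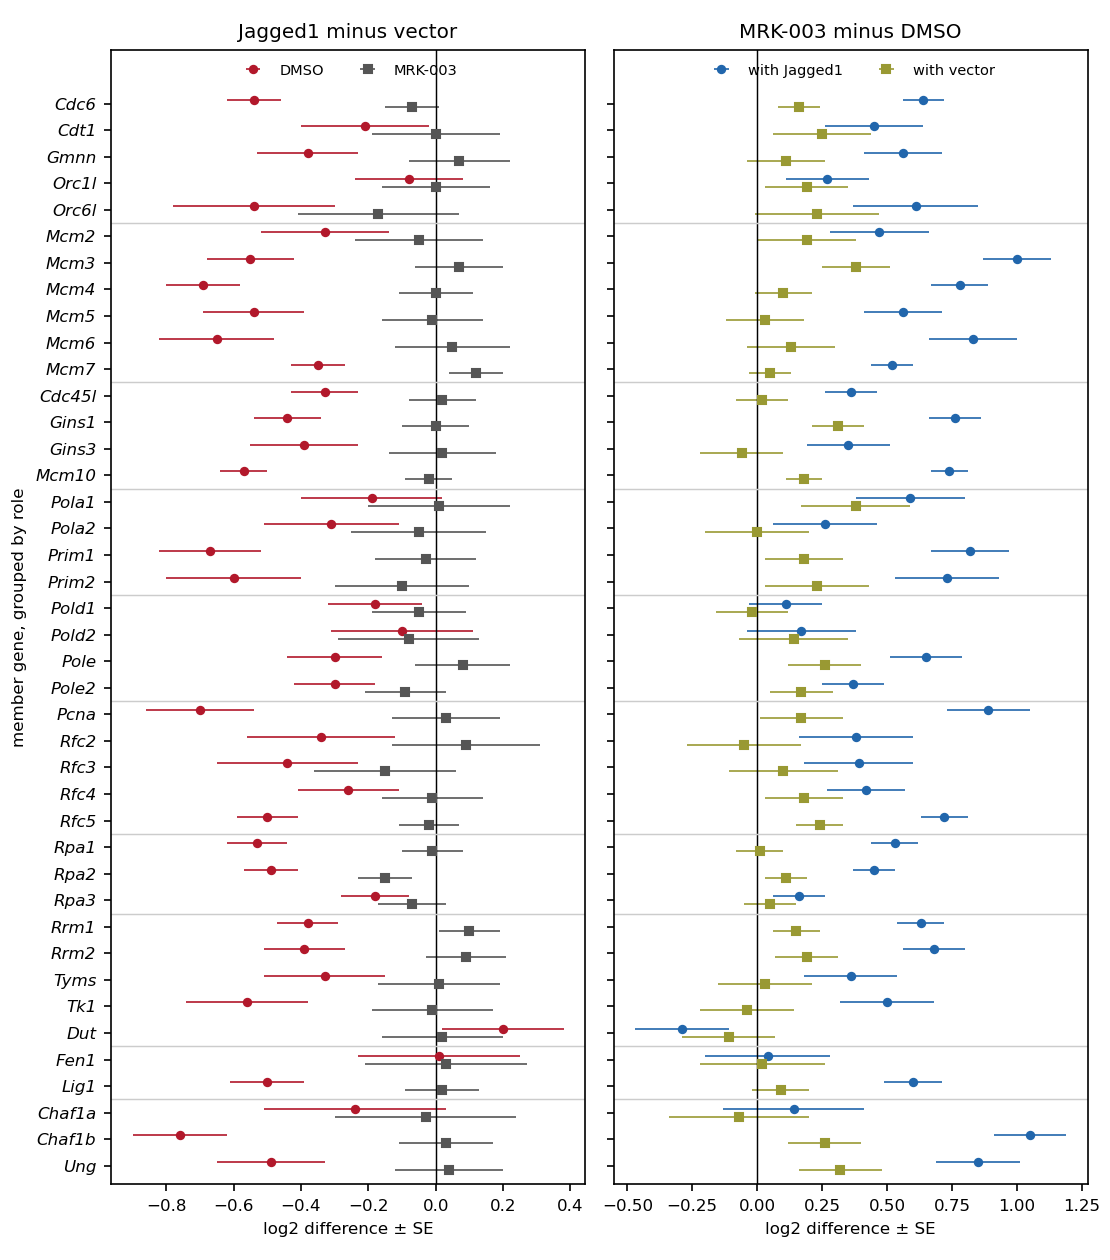
Log2 differences of 41 members with their standard errors from limma. The left panel gives Jagged1 minus vector in DMSO (circles) and in MRK-003 (squares), and the right panel MRK-003 minus DMSO with Jagged1 (circles) and with vector (squares). Circles lie left of 0 for 39 members in the left panel and right of 0 for 40 members in the right one, while squares in the left panel spread around 0.

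Other genes of the S phase programme were read from lists chosen by function. Of 37 other replication genes, 33 were lower in Jagged1 DMSO (median -0.28) and 33 were higher with MRK-003 and Jagged1 (median 0.36). Uhrf1, which recruits maintenance DNA methylation, differed by -0.58 and 1.10, the replisome adaptor Wdhd1 by -0.33 and 0.36, and Dtymk, a thymidylate kinase, by -0.45 and 0.45. Pold4, the small subunit of polymerase delta, went the other way, and lay at -0.22 and 0.10 in vector DMSO, 0.60 and 0.53 in Jagged1 DMSO, -0.53 and -0.71 in vector MRK-003, and -0.47 and -0.71 in the libraries labelled Jagged1 MRK-003. Its groups in DMSO did not overlap and both MRK-003 groups lay lowest, with differences of 0.62 ± 0.15 in DMSO (limma adjusted p = 0.368) and -1.15 ± 0.15 with MRK-003 and Jagged1 (limma adjusted p = 0.059, and 0.0283 with the block).

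The 32 genes of the E2F and retinoblastoma pathway were less uniform, with 21 lower in Jagged1 DMSO (median -0.12) and 23 higher with MRK-003 and Jagged1 (median 0.19). Those with the smallest p were the cyclins Ccne2 (-1.10 and 1.08) and Ccnd1 (-0.51 and 0.76), the repressor E2f7 (-0.50 and 0.79) and the kinase inhibitor Cdkn2c (-0.53 and 0.73). None of the 3 lists had a gene that passed in the fit of the group means, and with the block the E2F and RB genes Cdkn2c, E2f7 and Ccnd1 passed for MRK-003 with Jagged1 (limma adjusted p = 0.0197, 0.0313 and 0.0296). With the block, 3 other replication genes and 4 mitosis genes also passed there as higher (1.34% of all genes). As lower, 1 other replication gene passed there, Pold4 (215 of all 22919 genes). In Jagged1 DMSO, 2 mitosis genes passed as lower with the block, Kif20a and Nusap1 (0.279% of all genes). Nusap1, a spindle gene, was named after its values were seen. With the block and median background, 8 other replication genes, 5 E2F and RB genes and 18 mitosis genes passed as lower in Jagged1 DMSO (2.60% of all genes) and none as higher. In the same fit 19, 9 and 16 passed as higher with MRK-003 and Jagged1 (5.92% of all genes), and Pold4 passed as lower (909 of all 22919 genes).

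Mitosis genes, which act after S phase, were lower in Jagged1 DMSO too, and had another direction with MRK-003 and vector. Of 33 mitosis genes, 32 were lower in Jagged1 DMSO (median -0.45), among them the kinesin Kif20a (-0.76), the checkpoint gene Mad2l1 (-0.69), the spindle gene Tpx2 (-0.53) and the kinase Plk1 (-0.37). With MRK-003 and Jagged1, 30 were higher, with a median of 0.30 beside 0.53 for the replication genes. With MRK-003 and vector, 28 of 33 mitosis genes were lower (median -0.15) where 35 of 41 replication genes were higher. Without 1 of the 4 vector arrays the mitosis median ranged from -0.37 to 0.02 (0.02 without vector MRK-003 replicate 1, -0.01 without vector DMSO replicate 2), while that of the replication genes ranged from 0.07 to 0.18. The difference between both lists was described and not tested. Their promoters differed as well: the CHR word TTTGAA stood on either strand in 20 of 27 windows of mitosis genes (74.1%) and 4 of 35 of replication genes (11.4%), against 18.1% of all windows, and an E2F word stood in 1 of the 27 (3.7%).

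**Figure D4:**
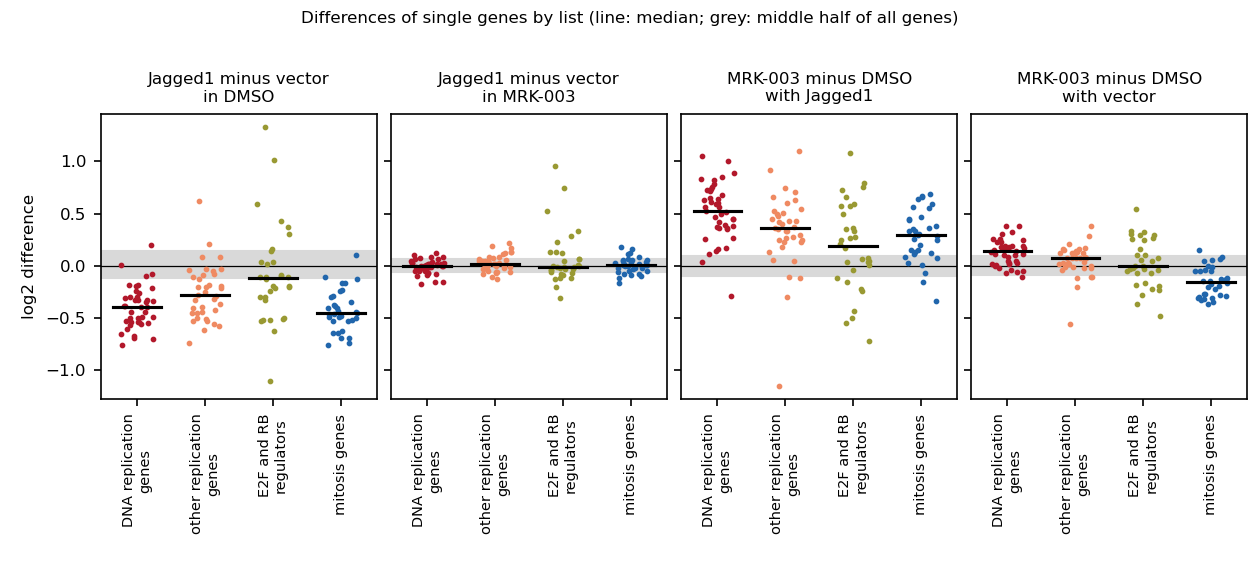
Log2 differences of single genes in 4 comparisons for 41 DNA replication genes, 37 other replication genes, 32 E2F and RB regulators and 33 mitosis genes, with a line at each median and a grey band over the interquartile range of all 22919 genes. For DNA replication and mitosis genes the median lines are at -0.39 and -0.45 in the first panel, 0.00 and 0.01 in the second, 0.53 and 0.30 in the third, and 0.14 and -0.15 in the last.

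Markers of cell types were read beside these differences. All 10 osteoblast markers were measured, and their median ratio over the reference was 0.79 to 1.62 on the 8 arrays, with a median difference of -0.25 in Jagged1 DMSO. That difference turned on single arrays: it was 0.02 without Jagged1 DMSO replicate 1, -0.66 without Jagged1 DMSO replicate 2, -0.49 without vector DMSO replicate 1 and -0.03 without vector DMSO replicate 2. Of 16 epithelial markers, 13 were kept (not Cdh1, Cldn4 and Esrp1), and 12 of them were higher in Jagged1 DMSO, with a median of 0.62 that was 0.17 with the median background. Of 13 macrophage markers, 11 were higher, with a median of 0.79 that was 0.03 with the median background. Their median ratios were -2.04 to -1.46 (epithelial) and -2.71 to -2.49 (macrophage) in vector DMSO and -1.69 to -0.56 and -1.99 to -1.34 in Jagged1 DMSO. With MRK-003 and Jagged1, 12 of the 13 epithelial and 11 of the 13 macrophage markers were lower (medians -0.22 and -0.27, and -0.10 and -0.01 with the median background). In MRK-003, 12 and 13 of them were higher in libraries labelled Jagged1 (medians 0.22 and 0.49, and 0.01 and -0.02 with the median background). The part of other cells in the differences of the replication genes was not tested.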

How the data were processed

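RNA of 8 co-cultures was hybridised in Cy3 against a mouse reference RNA in Cy5, per the labels, with no dye swap. Per the file headers, the authors read the scans in Feature Extraction 9.5.3.1, and probes are placed on mm7. The deposited intensity values (mean signal and median local background) were used as given. The deposited log10 ratio of the scanner software, with its sign turned, and the deposited table of log2 values (its values matched the log2 ratio of processed signals plus 1 constant per array, 100% within 0.02) served as alternatives. The deposited flags (0 or 1) gave outlier spots, which were left out, and spots well above background.

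Normexp background correction (offset 50) and loess were run in limma 3.58.1 (R 4.3.3). Each GeneName was read from its brightest probe, and names needed a Cy3 signal flagged as above background in both replicates of some group, which left 22919 of 27962 names. The 4 group means were fitted to 8 arrays, with 6 comparisons and a threshold of 0.05 after Benjamini-Hochberg adjustment, and the code was tested on simulated data. The slide as a block was an alternative, and blocked values are given beside results they change. Deviations of same-numbered arrays correlated between groups at 0.39 to 0.74, and each replicate number is 1 slide in the file headers. Same-numbered arrays thus go together by slide, and whether their cultures were also paired is not given. The number of arrays limits the precision.

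Members and lists were chosen with earlier results of these data known. Jag1, Hey1 and Notch3 were named as checks. Also named are the members with the 2 smallest p in the comparisons of Jagged1 in DMSO and of MRK-003 with Jagged1, those that passed, Cdt1, Gmnn, Pcna, Mcm2 to Mcm7 as ranges, the smallest p of each role, and the 4 smallest p of each other list.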

Additional observations from a re-analysis of the deposited data

How the results depend on the processing

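The 13 members named by rule kept their direction in the comparisons of Jagged1 in DMSO and of MRK-003 with Jagged1 under each alternative and with any 1 array left out, while calls moved. Members passing in DMSO went from 0 to 4 with the replicate block and to 17 with the median background and replicate block together. For MRK-003 with Jagged1 they went from 1 to 17 with the replicate block, 14 with the median background or no local background, 31 with median background and block, 5 with the scanner software log ratio, 4 with Cy3 alone, 3 with the deposited value table, 2 with no filter, and 0 with median centring or only the groups compared. For MRK-003 averaged they went from 1 to 15, 9 (median or no local background) and 26, to 2 with the scanner log ratio, Cy3 alone and the table, and to 0 with median centring. The interaction went from 0 to 1 with median background and block. Calls over all genes moved too. Those passing as higher for MRK-003 with Jagged1 went from 27 to 307 (block), 245 (median background) and 1357 (both) of 22919. Those passing as lower in DMSO went from 2 to 64 (block) and 595 (both). Calls over all genes are not given here for the remaining alternatives, so those counts cannot be read as particular to the members. The median difference over members in DMSO was -0.49 with the median background (block or not), no local background and the deposited table, and -0.77 with median centring. In MRK-003 it was -0.01 with the scanner log ratio and Cy3 alone and -0.41 with median centring. For MRK-003 with vector it was 0.17 with median centring and Cy3 alone, and for MRK-003 averaged 0.35 with the median background (block or not) or no local background, 0.36 with the scanner ratio and the table and 0.38 with Cy3 alone. Without 1 array, whichever was left out, 0 members passed in each comparison, down from 1 (Mcm10) for MRK-003 with Jagged1 and for MRK-003 averaged, the members lower in DMSO numbered 38 to 39 and those higher with MRK-003 and Jagged1 37 to 40. Over the same fits the medians ranged from -0.5 to -0.35 (Jagged1 in DMSO), -0.07 to 0.08 (Jagged1 in MRK-003), 0.43 to 0.61 (MRK-003 with Jagged1), 0.07 to 0.18 (MRK-003 with vector), -0.48 to -0.36 (interaction) and 0.29 to 0.36 (MRK-003 averaged). The cause of these shifts was not tested. Dim probes on the replicate 2 arrays, where 71.4% to 78.6% of spots passed the background flag in Cy3, limit what can be read of low genes.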
